A study of Mus musculus with 5 samples.

Results

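The 4 genes of the early B-cell factor (Ebf) family, *Ebf1*, *Ebf2*, *Ebf3* and *Ebf4*, were examined for NEUROD2 binding in the embryonic mouse cortex. Their loci were chosen by the peaks themselves, since *Ebf2* is among the genes with the highest closest-gene scores in these data, so the counts and scores below describe the loci and were not tested. Each locus was the mm10 span of the longest transcript of the gene in GENCODE M21 with 50 kb on either side, and peaks with a midpoint inside it were merged into regions where they overlapped. The 4 loci held 78 of 53833 merged regions. Of these, 53 had peaks of at least 2 antibodies and are called shared regions, out of 32261 shared regions on the 19 autosomes, X and Y.

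The peaks came from chromatin immunoprecipitation and sequencing (ChIP-Seq) of E14.5 cerebral cortex from BALB/c embryos, each experiment pooling embryos of several litters. NEUROD2 was precipitated with 3 antibodies. The host of ab1 was mouse and that of the other two rabbit, and each gave 1 library. The 2 GFP libraries, 1 per host species, served the peak caller as controls and have no peak values of their own here. All NEUROD2 libraries were of the same tissue, age and strain, so the 3 antibodies are repeat measurements of a single condition, nothing here compares conditions, and no expression was measured.

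EBF proteins are transcription factors that bind DNA as dimers through a zinc-containing domain characteristic of the family, and their dimers recognise a palindrome. EBF1 is best known for B-cell specification and for the differentiation of striatal neurons, EBF2 for the migration of several neuron types and for brown fat identity, EBF3 for neuronal differentiation and EBF4 for the olfactory system. In the developing cortex, members of the family are known from early-born neurons such as Cajal-Retzius cells. NEUROD2 is a basic helix-loop-helix (bHLH) factor of differentiating excitatory neurons and recognises E-boxes, in their widest form CANNTG.

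The sequences under the strongest peaks are given before the values because the E-box is the feature of these regions that the choice of loci did not use. For each locus, the 200 bp around the midpoint of the highest-scoring peak are shown for the region with the highest summed score and for the region with most extended E-boxes within that window, and for *Ebf1* also for the region second in summed score. Regions are named by the distance of their midpoint, along the gene, from the transcription start site (TSS) of its longest transcript. Sequences are 5′ to 3′ on the strand of the gene, from the mm10 reference, and capitals mark the 6 core letters of extended E-boxes, which are CAGCTG, then CAGATG with its reverse complement CATCTG, and CATATG, each followed by G or T on either strand. All 8 windows lay outside annotated untranslated regions.
Ebf1 +9.1 kb (chr11:44626098-44626297, plus strand): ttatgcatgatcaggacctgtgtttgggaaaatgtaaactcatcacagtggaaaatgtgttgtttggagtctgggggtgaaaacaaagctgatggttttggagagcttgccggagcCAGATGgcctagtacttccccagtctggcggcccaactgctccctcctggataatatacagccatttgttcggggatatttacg
Ebf1 +360.8 kb (chr11:44978022-44978221, plus strand): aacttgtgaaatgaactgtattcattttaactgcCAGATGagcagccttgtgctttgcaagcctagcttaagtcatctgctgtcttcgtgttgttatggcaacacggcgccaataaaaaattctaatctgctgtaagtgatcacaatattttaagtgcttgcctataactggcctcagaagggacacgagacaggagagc
Ebf1 +205.2 kb (chr11:44822393-44822592, plus strand): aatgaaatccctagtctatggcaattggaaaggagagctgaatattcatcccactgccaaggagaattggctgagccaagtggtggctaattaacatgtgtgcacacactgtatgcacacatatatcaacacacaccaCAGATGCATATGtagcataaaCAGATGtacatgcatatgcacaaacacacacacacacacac
Ebf2 +38.7 kb (chr14:67272143-67272342, plus strand): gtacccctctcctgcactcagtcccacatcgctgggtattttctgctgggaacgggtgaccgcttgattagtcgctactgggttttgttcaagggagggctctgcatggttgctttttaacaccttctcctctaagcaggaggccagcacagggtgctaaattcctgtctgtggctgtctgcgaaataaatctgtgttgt
Ebf2 +8.6 kb (chr14:67242097-67242296, plus strand): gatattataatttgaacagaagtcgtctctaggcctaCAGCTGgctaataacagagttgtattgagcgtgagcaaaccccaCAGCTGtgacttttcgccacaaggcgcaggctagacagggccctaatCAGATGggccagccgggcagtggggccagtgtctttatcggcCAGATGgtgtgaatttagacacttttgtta
Ebf3 +42.0 kb (chr7:137272396-137272595, minus strand): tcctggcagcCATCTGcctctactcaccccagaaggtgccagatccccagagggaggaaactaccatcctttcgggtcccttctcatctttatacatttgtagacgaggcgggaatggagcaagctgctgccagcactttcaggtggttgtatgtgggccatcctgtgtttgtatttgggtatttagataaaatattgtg
Ebf3 +167.1 kb (chr7:137147281-137147480, minus strand): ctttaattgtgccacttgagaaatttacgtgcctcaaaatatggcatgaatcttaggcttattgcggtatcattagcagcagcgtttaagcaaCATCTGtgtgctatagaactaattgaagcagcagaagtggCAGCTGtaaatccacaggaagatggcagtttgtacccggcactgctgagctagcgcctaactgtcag
Ebf4 +57.2 kb (chr2:130352070-130352269, plus strand): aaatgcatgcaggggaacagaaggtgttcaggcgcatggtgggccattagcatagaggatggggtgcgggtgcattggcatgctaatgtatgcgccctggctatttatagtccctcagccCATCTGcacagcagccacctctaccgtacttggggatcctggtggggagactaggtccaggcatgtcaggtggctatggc

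The peaks of *Ebf1* at +9.1 kb, *Ebf1* at +360.8 kb, *Ebf3* at +42.0 kb and *Ebf4* at +57.2 kb each had 1 extended E-box in this window. The window of *Ebf2* at +38.7 kb had none, although the whole region of 881 bp held 1. *Ebf2* at +8.6 kb carried 4, a pair of CAGCTG and a pair of CAGATG cores, which was the highest number in such a window among the 53 regions. *Ebf1* at +205.2 kb carried 3, of which 2 follow each other directly.

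*Ebf2* (chr14:67233586-67430918, plus strand, 197.3 kb, 17 exons) had 19 shared regions from 23 ab1, 19 ab2 and 3 ab3 peaks. This was 6.39 shared regions per 100 kb of locus, against a median of 0.95 over the 21938 protein-coding genes. At least 1 shared region was present in the same kind of window in 67.6% of protein-coding genes, and all 4 *Ebf* genes had one. By count *Ebf2* ranked 105 and by density 476 among protein-coding genes. With peak scores of at least 100 required, 12 shared regions of *Ebf2* were left.

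Several of the *Ebf2* regions lay around its TSS. The promoter region (chr14:67232886-67233977), with its midpoint 154 bp upstream of the TSS, had a peak score of 854.21 with ab1 and 777.43 with ab2 and no ab3 peak. A weaker region followed 983 bp downstream of the TSS in intron 1, with scores of 165.78 and 56.87. The region at +2.5 kb in intron 2 was called by all 3 antibodies, with 779.93, 555.22 and 54.95. The promoter region and the one in intron 1 were the only 2 of the 53 shared regions within 1 kb of the TSS of their own gene, taken from its longest transcript. All scores are the deposited peak scores, that is 10 times −log10 of the p-value from the peak caller, taken as the highest of each antibody.

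The highest-scoring region of the *Ebf2* locus lay further inside the gene. This region at +38.7 kb (chr14:67271803-67272683) in intron 7 reached 1671.73 with ab1, 849.91 with ab2 and 62.0 with ab3. In the same intron the region at +108.7 kb scored 748.65 and 371.23, and the region at +114.4 kb scored 765.32 and 332.38, both without an ab3 peak. The region at +154.8 kb in intron 9 had 681.7, 560.48 and 72.65. The ab3 scores of *Ebf2* ran from 54.95 to 72.65, all near the lowest score that any peak in the lists had, 50.

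*Ebf1* (chr11:44617317-45008091, plus strand, 390.8 kb, 16 exons) is the longest of the 4 genes and had the most shared regions, 20, from 29 ab1, 22 ab2 and 9 ab3 peaks. Its density was 4.08 per 100 kb, lower than that of *Ebf2* and *Ebf3*, and it ranked 94 by count and 1752 by density. All 20 shared regions lay in introns. The region at +9.1 kb (chr11:44625655-44627120) in intron 4 scored 3100, 1659.7 and 379.81 with ab1, ab2 and ab3. Near the other end of the gene, the region at +360.8 kb (chr11:44977488-44978817) in intron 11 scored 3114.85, 1606.11 and 408.47. An ab1 score of at least 3100 was found in 726 of the 32261 shared regions, of which 657 had exactly 3100, so ab1 did not rank those 657 among each other. Whether 3100 is a limit of the peak caller was not tested.

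A cluster of *Ebf1* regions lay within intron 6. The region at +177.7 kb scored 1673.35, 775.86 and 135.28, the region at +189.5 kb scored 847.91, 598.49 and 161.61, and the region at +205.2 kb scored 1346.51, 679.25 and 122.09. Between them, a region of 2141 bp at +183.6 kb held 5 peaks, with highest scores of 1021.83, 466.33 and 127.62. All 4 of these shared regions had peaks of the 3 antibodies, and a further region among them, at +181.1 kb, had an ab1 peak of 137.94 alone. By contrast, the shared region nearest to the *Ebf1* TSS, 1071 bp downstream in intron 1, was among the weaker ones, with 107.25 for ab1 and 106.61 for ab2. Closer to the TSS there was an ab1 peak of 67.6 with no partner from the other antibodies.

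*Ebf3* (chr7:137193673-137314445, minus strand, 120.8 kb, 16 exons) had 11 shared regions from 15 ab1, 15 ab2 and 2 ab3 peaks, or 4.98 per 100 kb. It ranked 418 by count and 1017 by density. Its region at +42.0 kb (chr7:137271617-137273314) in intron 6 had the highest ab2 and ab3 scores of the family, 2703 and 799.54, with 3100 for ab1, and these stood at percentiles 99.5 and 99.1 of all shared regions with a peak of that antibody. The region at +85.8 kb in intron 8 followed with 1380.94, 959.99 and 103.44. On the 2 sides of the TSS, the region 2651 bp upstream scored 732.24 and 554.32 and the region at +4.4 kb in intron 4 scored 672.45 and 668.74, neither with ab3. At the TSS itself there was an ab2 peak of 53.07, near the lowest score of 50, with no partner from ab1 or ab3. The median score of the *Ebf3* regions, 672.5 for ab1 and 385.1 for ab2, was the highest of the family, beside 337.5 and 161.2 in *Ebf1* and 225.9 and 140.2 in *Ebf2*. In *Ebf4* the medians were 365.1 and 191.7, over 3 regions.

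*Ebf4* (chr2:130295169-130370481, plus strand, 75.3 kb, 18 exons) had 3 shared regions from 6 ab1 and 4 ab2 peaks, and no ab3 peak. Its density of 1.71 per 100 kb ranked 8032. The region at +57.2 kb (chr2:130351499-130353205) in intron 7 scored 921.64 with ab1 and 274.71 with ab2, and the region at +64.2 kb in intron 8 scored 101.88 and 60.49. The remaining region, 20.6 kb upstream with 365.12 and 191.71, had its midpoint 171 bp from the TSS of *Nop56*, which encodes a core protein of small nucleolar ribonucleoproteins. At the TSS of *Ebf4* itself there was an ab1 peak of 260.64 with no partner from ab2 or ab3, the highest-scoring of the 25 regions in the 4 loci that a single antibody called. Of those 25, 19 came from ab1 (50.12 to 260.64), 6 from ab2 (53.07 to 84.78) and none from ab3.

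**Figure D1:**
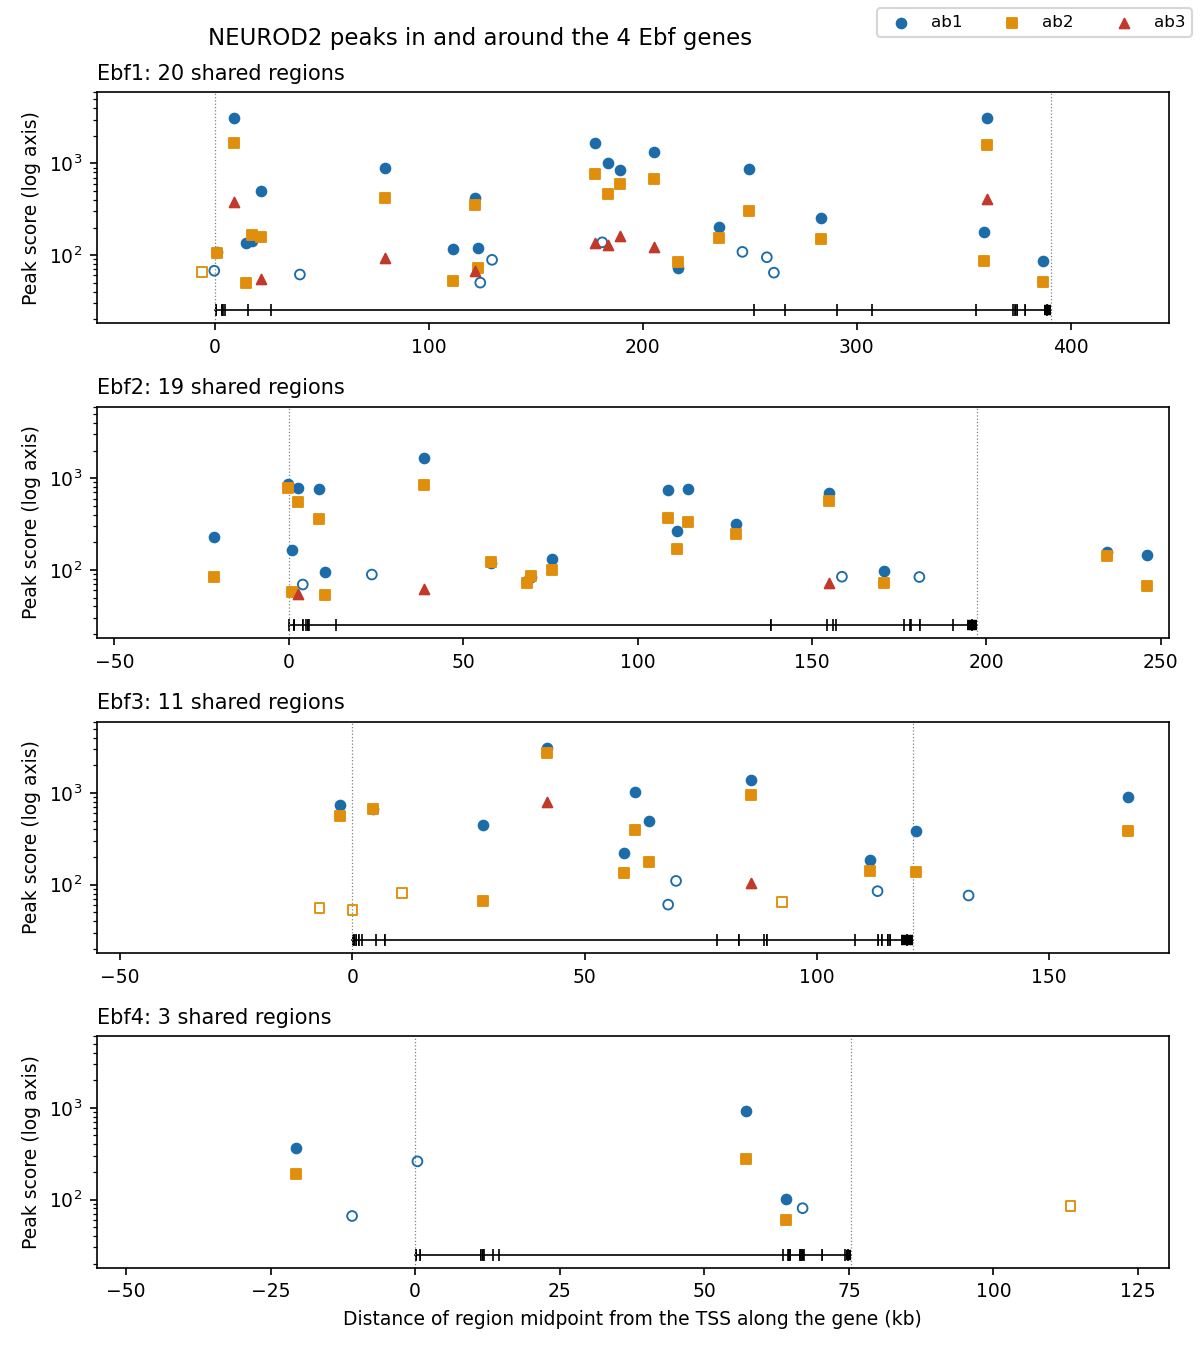
Peak scores (log axis) of ab1, ab2 and ab3 against the distance of the region midpoint from the TSS in kb, 1 panel per gene. Filled symbols are shared regions, open symbols are regions of a single antibody, dotted lines are the ends of the gene, and the line at the bottom of each panel shows exons as ticks that are not to scale in width. The 53 shared regions spread along the genes, with ab3 peaks in 9 *Ebf1*, 3 *Ebf2* and 2 *Ebf3* regions and in none of *Ebf4*.

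The edge of the window was close to further peaks in some loci. The outermost shared region inside was 48.6 kb beyond the end of *Ebf2*, with scores of 145.03 and 66.96. Just outside, 53.7 kb from *Ebf4*, lay a region with 1627.5 and 821.54, above any region inside the *Ebf4* window, and 55.6 kb from *Ebf1* one with 488.83 and 218. With windows of 100 kb the 4 loci held 60 shared regions, and with 10 kb they held 48.

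**Figure D2:**
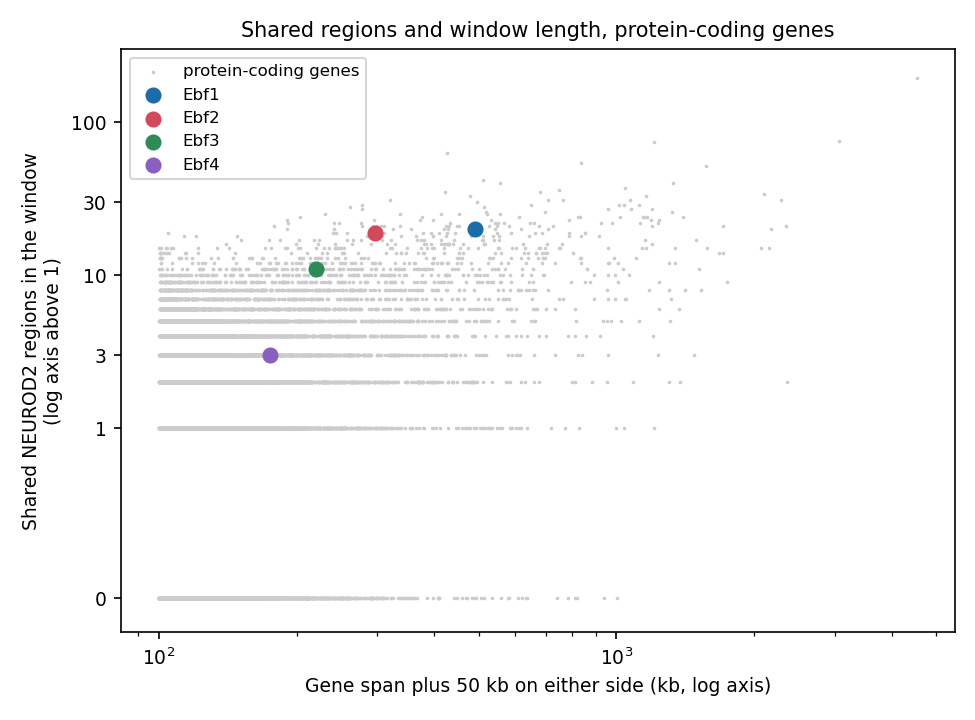
Number of shared regions in the window of each protein-coding gene (log axis above 1) against the length of the window in kb (log axis), with 21938 genes in grey and the *Ebf* genes in colour. *Ebf1*, *Ebf2* and *Ebf3*, with 20, 19 and 11 regions, lie above the median of 1 region, which is taken over windows of all lengths. By regions per 100 kb they rank 1752, 476 and 1017, and *Ebf4* with 3 regions ranks 8032.

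Within the genes, 45 of the 53 shared regions had their midpoint in an intron of the member gene and 0 in an exon of its longest transcript, while 4 lay upstream and 4 downstream. Counted over any gene, 47 of the 53 midpoints (88.7%, 95% Wilson interval 77.4 to 94.7) were in an intron and in no exon, against 49.6% of all shared regions, which unlike these were not picked from windows around genes. For the promoter region of *Ebf2*, another annotated transcript of the gene starts further upstream. Most regions were far from the TSS of their own gene, with 36 beyond 50 kb and 8 within 10 kb. With 1 TSS per gene, that of its longest transcript, a midpoint within 1 kb of a TSS was found in 3 of 53 regions (5.66%, 1.94 to 15.4). The share of all shared regions was 15.7%. Start sites of other transcripts were not counted in these distances.

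The 4 genes share 9 exon lengths in their longest transcripts, among them neighbouring exons of 69 and 82 bp that border the longest intron. That intron held 26 of the 53 shared regions, 11 in *Ebf1* (intron 6, 225.6 kb), 9 in *Ebf2* (intron 7, 124.6 kb), 5 in *Ebf3* (intron 6, 71.5 kb) and 1 in *Ebf4* (intron 7, 49.0 kb). The intron makes up 57.7% to 65.1% of each gene, and the number of regions for its length was compared with that in the rest of the span. In *Ebf1* it had 4.88 regions per 100 kb against 5.45 in the rest, in *Ebf2* 7.22 against 8.25, in *Ebf3* 6.99 against 6.09, and in *Ebf4* 2.04 against 3.81. Its strongest regions were nevertheless the strongest of the locus in *Ebf2*, *Ebf3* and *Ebf4*, with ab1 scores of 1671.73, 3100 and 921.64.

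**Figure D3:**
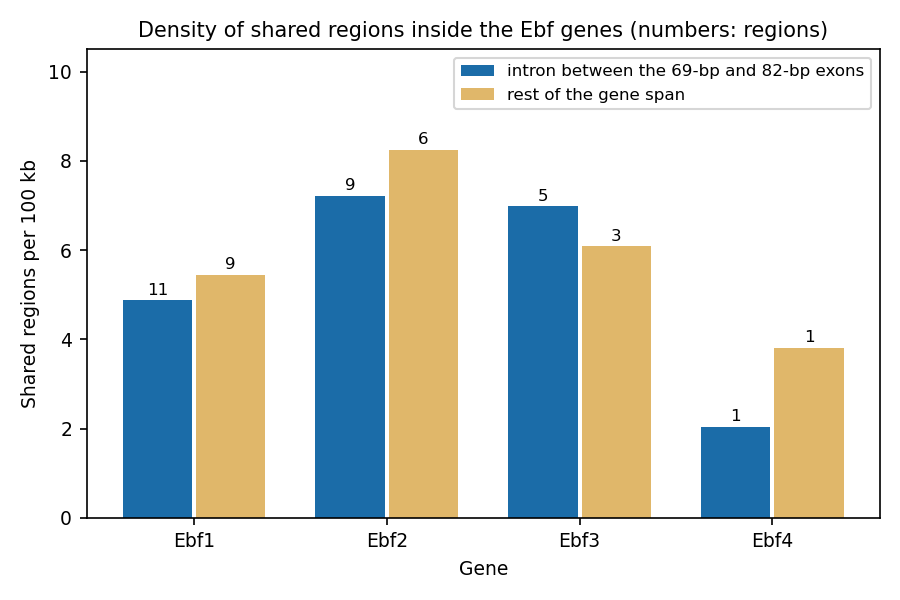
Shared regions per 100 kb in the intron between the exons of 69 and 82 bp (blue) and in the rest of the gene span (yellow), with the number of regions above each bar and no error, since each gene was counted in full. The 2 bars of each gene are close in *Ebf1*, *Ebf2* and *Ebf3*, and those of *Ebf4* rest on 1 region each.

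The closest-gene score adds, over the shared regions whose closest TSS is that of the gene, a weight that falls from 1 with the distance, with a decay length of 5000 bp. It was 2.7 for *Ebf2*, 1.07 for *Ebf1*, 1.0 for *Ebf3* and 0 for *Ebf4*. With peak scores of at least 100 required, the score of *Ebf2* was 1.76. The threshold was set 1 SD above the mean of the 16085 genes with a region and was 0.993, so *Ebf3* was just past it, and 6.35% of protein-coding genes lay above it. Among protein-coding genes *Ebf2* ranked 3, *Ebf1* 745 and *Ebf3* 929. The genes on the 2 sides of the threshold were *Arid4a* with 0.9928 and *Smad1* with 0.9927.

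For *Ebf2*, 3 regions made up most of the score, with weights of 0.97 for the promoter region, 0.822 for the region 983 bp downstream and 0.611 for the region at +2.5 kb. They lie side by side (chr14:67232886-67233977, 67234151-67234986 and 67235085-67237020) and counted separately because their peaks did not overlap. The score and rank of *Ebf2* depend on this, and merging across such short gaps was not tried. For *Ebf1*, 0.807 came from the weak region 1071 bp from the TSS, while the far stronger region at +9.1 kb added 0.163. The score takes no account of peak height. With the peaks of 1 antibody at a time, *Ebf2* scored 3.15, 2.71 and 0.579 with ab1, ab2 and ab3 (2.14 ± 1.37, SD, n = 3), above the other members with each antibody. The score counts called peaks and the lists hold 51841, 35310 and 7470, so the SDs given here are not measurement error alone. *Ebf1* scored 1.07, 1.06 and 0.185 (0.771 ± 0.507), *Ebf3* 1.0, 2.36 and 0 (1.12 ± 1.18) and *Ebf4* 0.93, 0 and 0 (0.31 ± 0.537). The ab2 value of *Ebf3* includes the ab2 peak of 53.07 at its TSS, which no other antibody called. *Ebf1* and *Ebf3* fell below the threshold of the setting with a decay length of 1000 bp (0.343 and 0.0824) and, with unchanged scores, when genes other than protein-coding ones were left out, which raised the threshold to 1.08. Without ab1 or without ab2, *Ebf1* (0.175 and 0.183) and *Ebf3* (0 and 0) were also below the threshold of 0.578, while *Ebf2* was just above it with 0.611 and 0.596.

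The closest TSS was that of the member gene for 13 of the 53 regions and of another gene for 40. In 39 of the 40 cases the other gene was noncoding, and in 1 it was *Nop56*. In *Ebf1*, 11 regions counted for the antisense gene *Gm12158* and 4, including the strong region at +360.8 kb, for the long intergenic noncoding RNA (lincRNA) gene *Gm12159*, whose TSS was 138775 bp away from it. In *Ebf2*, 4 regions counted for *1700120O09Rik*, 3 for *Gm6878*, 2 each for *4930438E09Rik*, *Gm38409* and the predicted miRNA gene *Gm23178*, and 1 for *Gm20675*. In *Ebf3*, 5 counted for *Gm10578*, among them the region at +42.0 kb, 2 for *Gm45278* and 1 for *Gm45499*. In *Ebf4*, 2 counted for the pseudogene *Gm14044*. None of these noncoding genes passed the threshold, the highest being *Gm38409* with 0.763.

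The scores of ab1 and ab2 were compared across the regions. All 53 shared regions had both an ab1 and an ab2 peak, and the log10 scores of the 2 antibodies correlated across them with Pearson's r = 0.926 and Spearman's rho = 0.895, beside 0.885 and 0.845 over the 32210 shared regions with both peaks. Regions share the libraries and are not replicates, so no p is given. The ab1 score was the higher in 49 of the 53, with a median ratio of 1.69, beside 28682 of 32210 and a median ratio of 1.84 over all shared regions with both peaks. Median scores in the *Ebf* loci were 383.0 for ab1, 168.8 for ab2 and 112.8 for ab3, beside 277.7, 140.2 and 90.46 over all shared regions with a peak of that antibody.

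Peaks of all 3 antibodies were found in 14 of the 53 regions (26.4%, 16.4 to 39.6), against 22.2% of all shared regions. They were 9 of 20 in *Ebf1*, 3 of 19 in *Ebf2*, 2 of 11 in *Ebf3* and 0 of 3 in *Ebf4*. The ab3 peaks followed the ab1 score, since no ab3 peak occurred in a region with an ab1 score under 423.67 and the highest ab1 score without one was 1025.42, at +60.9 kb in *Ebf3*. Of the 23 regions with an ab1 score of at least 500, a limit chosen after the values were seen, 13 had an ab3 peak (56.5%, 36.8 to 74.4), against 60.6% of all such shared regions. By gene this was 8 of 9 in *Ebf1*, 3 of 7 in *Ebf2*, 2 of 6 in *Ebf3* and 0 of 1 in *Ebf4*. Because every shared region had ab1 and ab2 peaks, leaving out ab3 kept all 53, while leaving out ab1 or ab2 left 14 each, by the requirement for the other 2.

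**Figure D4:**
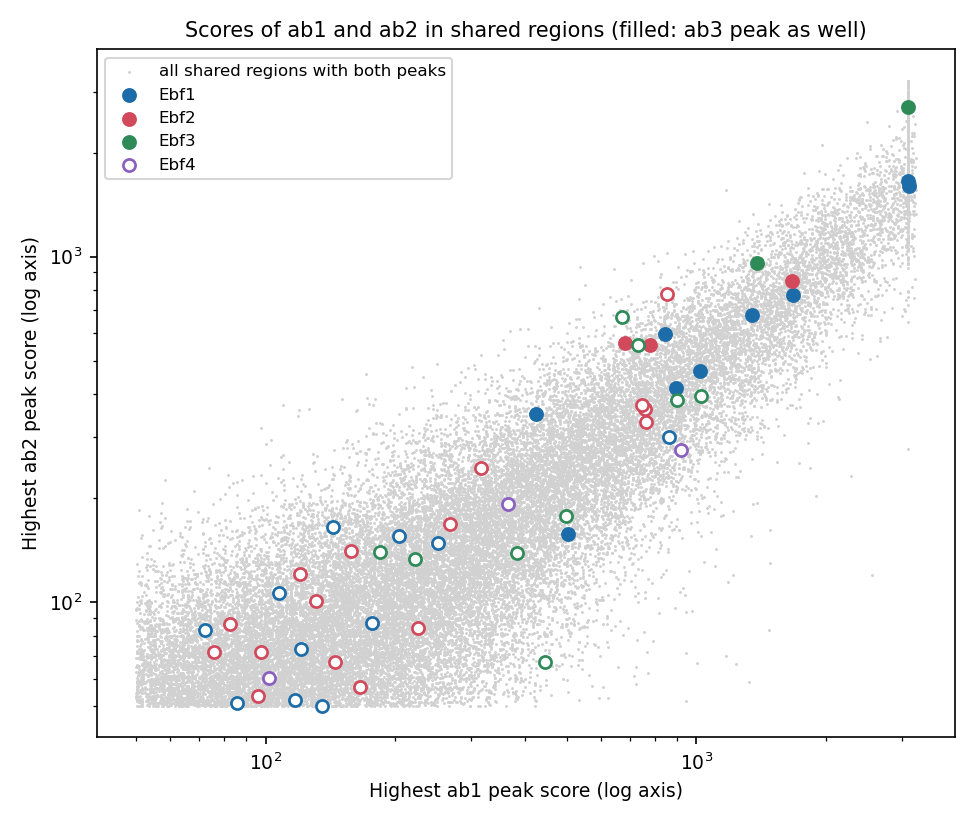
Highest ab2 score against highest ab1 score (both log axes) for shared regions, with the *Ebf* loci in colour over all 32210 shared regions with both peaks in grey, and filled symbols for regions with an ab3 peak as well. The *Ebf* regions lie along the grey cloud, and the filled symbols start at an ab1 score of 423.67.

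Motif content was not used to choose the loci and was tested. Of the 53 regions, 26 had an extended E-box within 200 bp centred on the midpoint (49.1%, 36.1 to 62.1), against 12 (22.6%, 13.5 to 35.5) of the 200-bp windows that start 1000 bp beyond the end of lower coordinate. It was in the centre alone in 18 regions and in the flank alone in 4 (McNemar's exact test, two-sided, p = 0.00434 over 53 regions). Against the flank on the other side, with 15 of 53 (28.3%), the counts were 17 and 6 (exact p = 0.0347). These are regions of 4 loci in the same libraries and not replicate samples. The test takes the 53 regions as independent, which neighbouring regions of a locus may not be. Its p therefore describes these regions only and measures no spread between samples. The difference was not past 0.05 with the loose form CANNTG (44 against 39 of 53, exact p = 0.405), with windows of 100 bp (15 against 9, exact p = 0.263) or without ab1 (8 against 3 of 14, exact p = 0.125).

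All shared regions held an extended E-box in the centre in 59.6%, which lies within the interval of the *Ebf* share. The flank of lower coordinate held one in 22.3% of all shared regions and in 22.6% of the *Ebf* regions. A centre share above the flank share was thus not particular to the *Ebf* loci. By locus the central counts were 9 of 20 in *Ebf1*, 12 of 19 in *Ebf2*, 4 of 11 in *Ebf3* and 1 of 3 in *Ebf4*. Centred on the highest-scoring peak in place of the region, 35 of the 53 windows (66.0%, 52.6 to 77.3) had one, against 60.2% of all shared regions, and the strong regions *Ebf1* +9.1 kb and *Ebf4* +57.2 kb were among those gained. Over the whole region, 49 of 53 (92.5%) held at least 1, against 90.3% of all, at 2.07 and 2.3 extended E-boxes per kb. The 4 without any were 3 regions of *Ebf1* and 1 of *Ebf3*. In the central window, the share was 7 of 14 in regions with an ab3 peak and 19 of 39 (48.7%) in those without, beside 63.4% and 58.6% over all shared regions, and this difference was not tested.

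By core, CAGATG was found in the centres of 16 of 53 regions (30.2%, against 43.1% of all shared regions), CATATG in 11 (20.8%, against 11.7%) and CAGCTG in 9 (17.0%, against 28.1%), each on either strand and with any following letter. In the flanks of the *Ebf* regions these cores occurred in 13.2%, 3.77% and 11.3%. CAAATG, which is not part of the extended form, was in 13 centres (24.5%, against 14.6%). The differences from all shared regions were not tested.

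**Figure D5:**
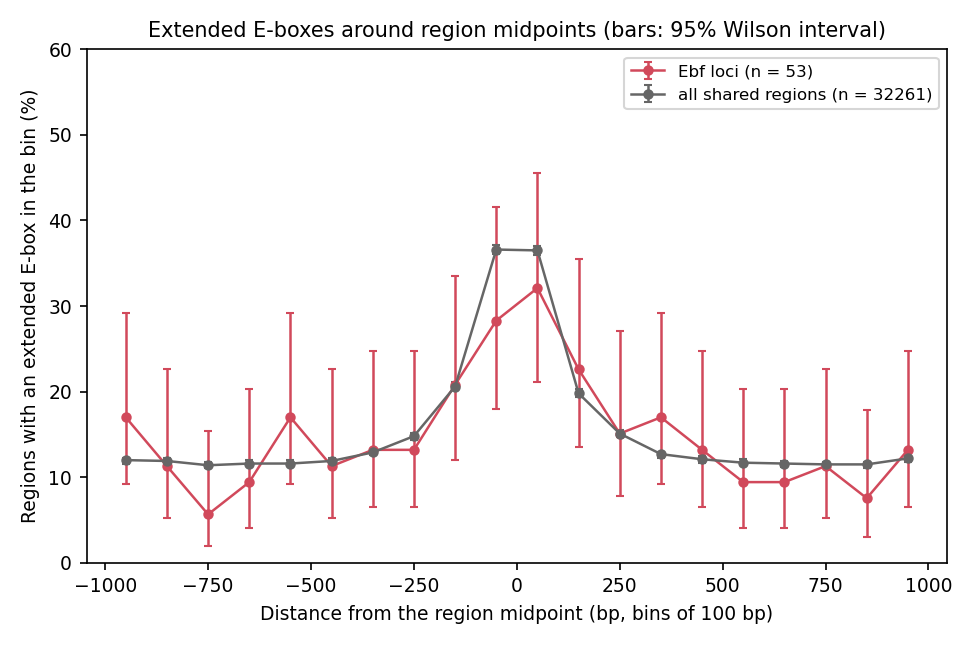
Percent of regions with an extended E-box in each bin of 100 bp against the distance from the region midpoint in bp, for the 53 regions of the *Ebf* loci (red) and all 32261 shared regions (grey), with 95% Wilson intervals that cover counting error only. In the *Ebf* loci the bins on the 2 sides of the midpoint stand at 28.3% and 32.1%, beside 36.6% and 36.5% over all shared regions, and the bins beyond 500 bp stand between 5.66% and 17.0%.

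The letters TCCCNNGGG, the core of the palindrome that EBF proteins bind, were searched on both strands in the same windows. They occurred in 1 of 53 centres (1.89%, 0.334 to 9.94), the +4.4 kb region of *Ebf3* with a GC content of 77.0%, against 3.62% of all shared regions, and in 2 of the 53 flanks (3.77%).

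Among genes related to the family, *Zfp423* and *Zfp521*, whose zinc finger proteins bind EBF proteins and modulate their activity, had 23 and 15 shared regions. Their closest-gene scores of 0.883 and 0.963 were both under the threshold. Of 10 genes of early-born cortical neurons, 9 had at least 1 shared region (against 67.6% of all protein-coding genes) and 2 were above the threshold (against 6.35%). These 2 were *Tbr1* with 2.7, a T-box factor of early projection neurons, and *Nhlh2* with 2.48, a bHLH factor. The lowest score, 0, was shared by *Reln*, *Trp73*, *Lhx1* and *Ndnf*, and *Ndnf* had 0 shared regions. *Reln*, which encodes the Reelin signal of Cajal-Retzius cells, had 14 shared regions, but none of them was closest to its TSS. Of 6 proneural and neuronal bHLH genes all had at least 1 shared region and 3 were above the threshold, beside the same 67.6% and 6.35% of protein-coding genes, with *Neurod6* highest at 2.0, while *Neurog1* and *Neurod1* scored 0.

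The protein-coding genes whose summed scores over the 3 antibodies were nearest to each member, by Euclidean distance on the log10 scale, were *Aldh1b1* and *Dgki* for *Ebf1*, *Gpc6* and *Whrn* for *Ebf2*, *Hlcs* and *Kctd21* for *Ebf3*, and *Gpc1* and *Fbf1* for *Ebf4*. For *Ebf2* the summed scores were 8470.8, 5076.4 and 189.6, and for *Gpc6* 8291.6, 4693.4 and 218.9, at a distance of 0.0714. *Gpc6* spread its 24 shared regions over a window of 1151.1 kb and had a closest-gene score of 0.97, so a like sum of scores came with a lower score near the TSS than that of *Ebf2*. The likeness is over 3 libraries and says how much signal lay in the window, not where.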

How the data were processed

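ChIP-Seq peaks of NEUROD2 from cortex at E14.5 were analysed as 3 peak lists, 1 per antibody. Per the study's methods, the authors mapped reads to mm10 with Bowtie, removed duplicates and reads with several positions, and ran MACS for each antibody, with the GFP library from the same host as control. The deposited score of a peak is the −log10 p-value times 10, not scaled between libraries. The study's read totals per library were not used here, and the peak lists give no reads per region, so intervals cover counting error only. The lists held 51841, 35310 and 7470 peaks on the chromosomes used.

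Peaks overlapping by at least 1 bp were merged, regions with at least 2 antibodies were kept, and each antibody was represented by its highest peak score there. Genes were the longest transcripts of GENCODE M21 (55413 genes). The closest-gene score had no random score subtracted. Sequence came from GRCm38, which is of another strain than BALB/c. The members and gene lists were chosen with earlier results of these data known. Genes named are the members, owners of the closest TSS, the 2 genes nearest each member in summed score and, from 3 lists of related genes, those with the highest and the lowest score. *Nhlh2* was named beside them after its value was seen, as were the genes next to the threshold. Centres and flanks were compared with McNemar's exact test. Calculations used Python 3.11.15, numpy 2.4.6, pandas 2.3.3 and scipy 1.17.1, and were tested on simulated data. Alternatives were an overlap of 50% of the shorter peak, leaving out peaks that scored under 100, each antibody left out, other flanks, spans, decay lengths and TSS sets, and other motif windows.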

Additional observations from a re-analysis of the deposited data

How the results depend on the processing

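No paired analysis was possible because the GFP libraries, which share replicate numbers with 2 of the NEUROD2 libraries, gave no peak values here. Over the 3 settings that leave out an antibody, the shared regions of the 4 loci ranged from 14 to 53, the score of *Ebf1* from 0.175 to 1.07, that of *Ebf2* from 0.596 to 2.7, and the gap between the shares of centres and flanks with an extended E-box from 26.4 to 57.1 percentage points. With a decay length of 1000 bp the scores were 0.343 for *Ebf1* and 1.32 for *Ebf2*, and with 50000 bp 3.91, 4.58 and 2.43 for *Ebf1*, *Ebf2* and *Ebf3*. With all annotated transcripts *Ebf1* scored 1.68 and *Ebf3* 2.29. With peak scores of at least 100 *Ebf2* scored 1.76. *Ebf2* was above the threshold computed in each of the 8 alternatives and *Ebf4* stayed at 0. The E-box gap was 9.43 points with CANNTG (exact p = 0.405) and 11.3 with 100-bp windows (exact p = 0.263), and 50.9 with 400-bp windows (exact p = 1.12e-07). The share of regions with all 3 antibodies was 21.1% with peak scores of at least 100 and 25.9% with the stricter overlap. Without ab1 or ab2, 14 regions were left by the requirement for the other 2 antibodies. A longer decay length raises every weight by definition. The cause of the other changes was not tested. Peak lists show no binding under the caller's cutoff, so a missing ab3 peak, of a list with 7470 peaks, is not absence of binding.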
